A study of Mus musculus with 30 samples.

Results

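The genes described here encode matrix metalloproteinases (Mmp), membrane-bound disintegrin and metalloproteinase proteins (Adam), their secreted relatives with thrombospondin repeats (Adamts and Adamts-like), and the tissue inhibitors of metalloproteinases (Timp). A gene was taken when a transcript cluster of the array, the set of exon probes that the platform assigns to 1 locus, carried a single symbol beginning with Mmp, Adam or Timp plus a number, or with Adamts. These were 65 of the 14860 genes with such a cluster, read on the brightest cluster, and Adam23 alone had more than 1 cluster. Another 4 clusters name a member together with other genes and were not used. The samples were pools of at least 4 mouse embryos (F1 of C57Black6 x DBA cross) on 30 Affymetrix Exon 1.0 ST arrays, 3 for each group. The epithelial fraction (EPI) and the adjacent mesenchyme (MES) were taken from the olfactory placode (OPL) at embryonic day (E) 11.5, from the olfactory epithelium (OE) both at E12.5 (titled olfactory placode in the labels and taken here as the OE of the methods) and at E14.5, and from the vomeronasal organ (VNO) at E14.5. Dlx5-null (KO) and wild-type (WT) epithelium at E12.5 made up the other 6 arrays. Dlx5 encodes a homeodomain factor of the placode, and its null allele carries lacZ. For KO embryos the whole nasal lining was dissected, so that genotype and dissection differ together and cannot be told apart. The methods describe the 3 pools of a condition as independent biological replicates, without saying whether they came from separate litters, and p-values here reflect how much these pools varied.

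Mmps cleave collagens, proteoglycans and other proteins of the extracellular matrix. Most are made as inactive proforms, and Mmp14 at the cell surface activates pro-Mmp2 together with Timp2. Adams with an active site shed the outer part of membrane proteins, among them Notch and growth factor ligands, whereas Adam11, Adam22 and Adam23 have lost the active site and bind partners such as the Lgi proteins. Adamts proteases cut aggrecan, versican and procollagens, and the Timps block the active sites of all these families to different degrees. In the embryo this system is best known from the removal of cartilage matrix during bone formation, from vessel growth and from the paths that migrating cells take through matrix.

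The deposited log2 RMA values were quantile-normalized over the 24 arrays of the time course, and separately over the 6 Dlx5 arrays, since the deposited array medians differed between groups (6.41 to 6.44 in EPI OPL E11.5, against 7.01 to 7.17 over the MES arrays). All levels below are log2 values on that scale, and levels of different genes are not comparable. Replicate arrays of a group correlated at 0.961 to 0.990 (Pearson's r across clusters, which are not independent replicates). Epithelial markers separated the fractions at E11.5 (8 of 9 higher in EPI than in MES) and at E12.5 (7 of 9), but at E14.5 only 3 of 9 were higher in EPI OE and 2 of 9 in EPI VNO. Mesenchymal markers summed to between 21374 and 24147 linear units in the EPI arrays of E14.5 and to between 23723 and 27661 in the MES arrays. The EPI and MES fractions at E14.5 are therefore compared below as labelled, although their markers overlap. In bulk tissue, fewer cells of a type and less RNA per cell cannot be told apart. EPI OE E14.5 replicate 2 stood apart from its group, with a mean cartilage marker level of 8.91 against 10.08 and 10.18 and a mean neuronal marker level of 10.16 against 9.68 and 9.45. KO replicate 1 did so as well, with 9.80 against 8.62 and 8.21 for cartilage and 10.06 against 10.65 and 10.78 for epithelium. Results that change without these arrays are given both ways below.

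The members differed in how far they varied over the groups. The 8 group means of a member spanned 0.98 log2 units in the median, against a median SD between replicates of 0.10, and the span was under 1 in 34 members, 1 or more in 31 and 2 or more in 7. Those 7 were Mmp13 (4.66), Adam28 (3.62), Mmp9 (3.20), Adamts12 (2.58), Adam4 (2.54), Adamtsl1 (2.14) and Timp1 (2.01). Relative to the median cluster of the time course (6.86), 28 members were brighter and 37 were not. The dim ones included all 4 collagenases and 13 of the 14 Adams known from testis or epididymis. Over 13 comparisons of groups, 24 members were called at least once and 41 were not called, among them Adam10, Adam22, Adam23, Timp2, Mmp16 and Mmp11.

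**Figure D1:**
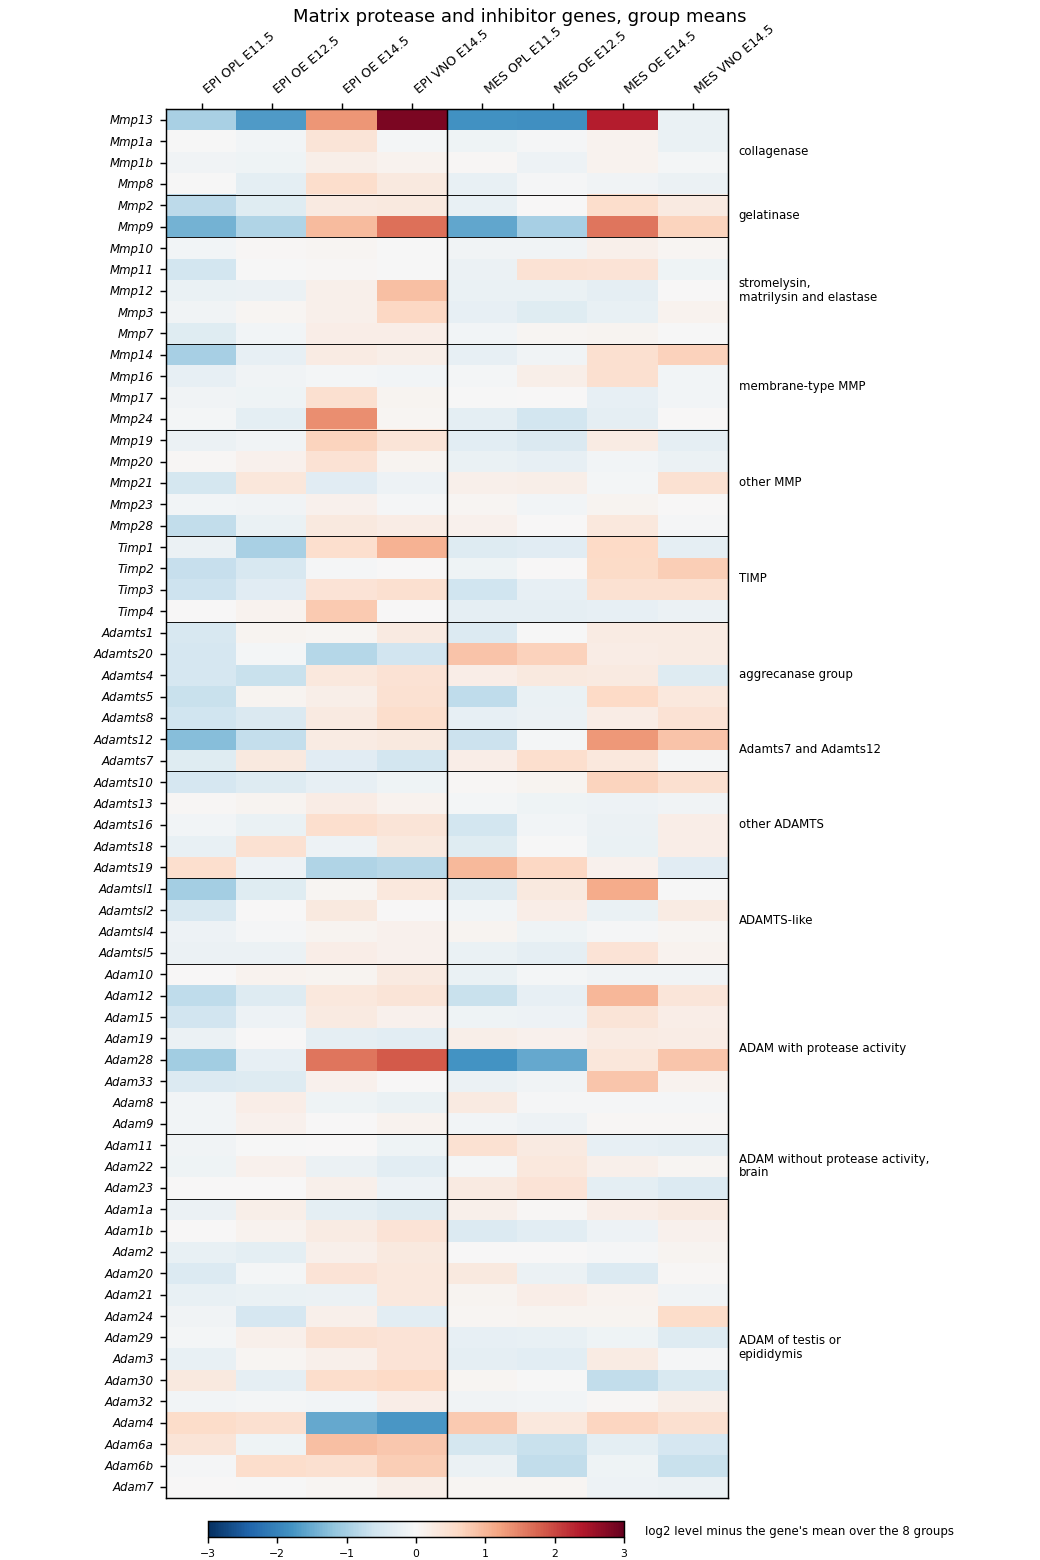
Group means of the 65 members (rows, ordered by role) in the 8 groups of the time course (columns, EPI left and MES right), as log2 level minus the member's mean over the 8 groups. Mmp13, Mmp9 and Adam28 spanned 4.66, 3.20 and 3.62 log2 units, while 34 of the 65 members spanned less than 1.

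Of the Mmps, 9 members stand side by side on mouse chromosome 9, in the order Mmp13, Mmp12, Mmp1b, Mmp3, Mmp1a, Mmp10, Mmp8, Mmp20 and Mmp7, with Mmp27, not among the members, before Mmp20 and no other protein-coding gene between them. RefSeq promoter windows of GRCm38.p6, 250 bases before to 50 after an annotated start, were at hand for 40 of the 65 members. They were searched on both strands for TGANTCA, a loose form of the AP-1 motif with any middle base, and for TGTGGT, a Runx core. TATAAA, the TATA box, was searched on the gene's strand. The AP-1 letters were present in 8 of the 9 genes of the row and in 4 of the 31 other members with a window, against 7.81% of all 32851 windows. They read TGAATCA in Mmp20 of the row and in Adam20 of the others, and TGAGTCA or TGACTCA in the rest of these genes. TATAAA was present in 8 of the 9, in 4 of the 31 and in 8.32% of all windows, and TGTGGT in 3 of the 9, in 7 of the 31 and in 16.8% of all windows. A gene was counted when any of its windows held the letters, whereas the shares of all windows count each window. The earlier of the annotated Mmp12 starts had a window with none of the 3 motifs. A match of letters is a description and not a site. The windows below are shown because the genes stand together but differed in how far their levels varied: Mmp13 spanned 4.66 log2 units over the groups, Mmp12 1.17, Mmp3 0.98 and Mmp8, the member of the row with neither the AP-1 nor the TATA letters, 0.83. The row members not shown, Mmp20, Mmp1a, Mmp7, Mmp1b and Mmp10, also held the AP-1 and TATA letters. They spanned less than Mmp8, at 0.70, 0.59, 0.57, 0.32 and 0.26 in that order. Mmp1b held all 3 motifs, as Mmp13 did. The highest group mean was in EPI VNO E14.5 for Mmp13, Mmp12 and Mmp3 and in EPI OE E14.5 for Mmp8. Capitals mark the matches (any of the 3 motifs), and all 4 genes shown lie on the plus strand.
Mmp13, chr9:7272264-7272563: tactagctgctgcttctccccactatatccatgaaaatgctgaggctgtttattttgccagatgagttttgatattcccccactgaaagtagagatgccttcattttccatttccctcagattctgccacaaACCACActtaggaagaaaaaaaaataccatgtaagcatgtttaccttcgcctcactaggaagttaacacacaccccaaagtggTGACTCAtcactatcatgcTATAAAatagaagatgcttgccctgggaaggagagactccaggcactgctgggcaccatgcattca
Mmp12, later of its annotated starts, chr9:7347124-7347423: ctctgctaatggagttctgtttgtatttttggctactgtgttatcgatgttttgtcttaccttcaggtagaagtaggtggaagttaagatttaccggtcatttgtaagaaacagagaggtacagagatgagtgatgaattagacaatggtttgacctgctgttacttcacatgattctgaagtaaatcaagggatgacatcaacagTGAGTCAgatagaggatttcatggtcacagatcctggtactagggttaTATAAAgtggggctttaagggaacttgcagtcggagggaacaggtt
Mmp3, chr9:7445572-7445871: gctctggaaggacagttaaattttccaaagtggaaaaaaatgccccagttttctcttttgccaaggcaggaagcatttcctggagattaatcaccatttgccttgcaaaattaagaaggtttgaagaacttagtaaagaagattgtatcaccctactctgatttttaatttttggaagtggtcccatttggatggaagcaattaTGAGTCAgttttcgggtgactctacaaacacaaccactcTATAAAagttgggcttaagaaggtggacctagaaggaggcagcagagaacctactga
Mmp8, chr9:7558179-7558478: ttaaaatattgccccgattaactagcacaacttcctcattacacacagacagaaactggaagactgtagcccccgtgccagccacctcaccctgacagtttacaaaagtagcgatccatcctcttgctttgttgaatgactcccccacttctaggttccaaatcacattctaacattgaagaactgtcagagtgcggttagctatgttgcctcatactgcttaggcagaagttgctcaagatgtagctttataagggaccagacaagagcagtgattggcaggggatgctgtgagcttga
The AP-1 letters began 35 bases before the annotated start in Mmp13, 44 in Mmp12 and 46 in Mmp3. TATAAA began 16 bases before the start in Mmp13 and 7 in Mmp3, and at base 5 after it in Mmp12, and no matches of different motifs overlapped in these windows. The Runx letters of Mmp13 began 118 bases before the start, and the windows of Mmp12, Mmp3 and Mmp8 held none.

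Between E11.5 and E14.5 more members rose than fell. With limma on the 6 arrays of a pair, and calls at a Benjamini-Hochberg adjusted p up to 0.05 together with a change of 0.9 log2 units or more, 11 members were called in EPI OE E14.5 against EPI OPL E11.5 (9 higher, 2 lower), which is 16.9% of members against 11.3% of all genes (9.44% higher, 1.91% lower). In EPI VNO E14.5 against EPI OPL E11.5 there were 17 (15 higher, 2 lower), 26.2% of members against 12.5% of all genes (10.3% higher, 2.2% lower). In the mesenchyme the count was 10 for MES OE E14.5 (all higher), 15.4% against 7.76% of all genes (6.13% higher, 1.63% lower), and 9 for MES VNO E14.5 (8 higher, 1 lower), 13.8% against 9.32% (7.15% higher, 2.17% lower). The comparisons within a fraction share their E11.5 arrays. The median difference over the members was 0.39, 0.41, 0.13 and 0.12 log2 units in that order, against 0.25, 0.19, 0.01 and 0.03 over all genes. On the values as deposited the first count was 17 (15 higher, 2 lower), and without EPI OE E14.5 replicate 2 it was 14 (12 higher, 2 lower). Rank Products, the rank-based test of the study, called 3 members in EPI OE, 5 in EPI VNO, 7 in MES OE and 4 in MES VNO. Markers of other tissues moved with these comparisons, and their part in the results was not tested. In EPI VNO E14.5 against EPI OPL E11.5, 5 of 6 osteoblast, 6 of 7 cartilage, 6 of 7 skeletal muscle, 5 of 8 macrophage and 6 of 9 mesenchymal markers were higher, and in EPI OE E14.5 5 of 9 mesenchymal ones were. The mesenchymal markers summed to between 21374 and 24147 linear units in the EPI arrays of E14.5, against 6979 to 9356 in EPI OPL E11.5. In the mesenchyme 7 of 9 epithelial and 7 of 8 neuronal markers were higher in MES OE E14.5 than in MES OPL E11.5, and 8 of 9 and 7 of 8 in MES VNO E14.5.

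**Figure D2:**
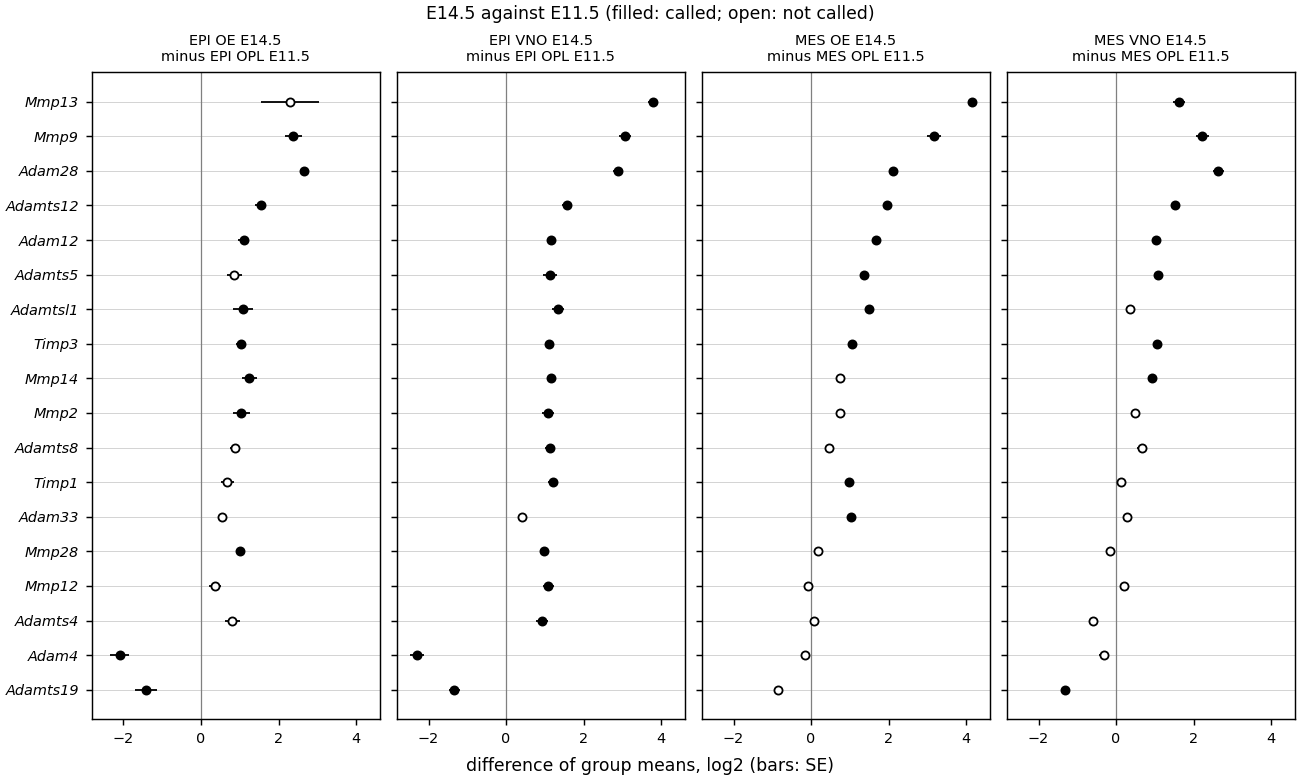
Difference between E14.5 and E11.5 in log2 units (points, bars are SE, 3 arrays in each group) for the members called in at least one of the 4 comparisons, with filled points for calls. Mmp13, Mmp9, Adam28 and Adamts12 lie farthest to the right, Adam4 and Adamts19 to the left, and the open point of Mmp13 in EPI OE (2.29) has the widest bar.

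Mmp13, the main collagenase of mouse cartilage and bone, spanned the widest range of the members. Its levels in EPI were 4.05, 4.20 and 3.86 at OPL E11.5, 3.23, 3.63 and 3.05 at OE E12.5, 7.35, 4.47 and 7.17 at OE E14.5, and 7.88, 7.88 and 7.69 at VNO E14.5. In MES they were 3.02, 3.37 and 3.20 at OPL E11.5, 3.08, 3.21 and 3.20 at OE E12.5, 7.23, 7.44 and 7.38 at OE E14.5, and 5.02, 4.87 and 4.54 at VNO E14.5. Levels were thus low in every array up to E12.5 and high at E14.5 in EPI VNO, in MES OE and in all but replicate 2 of EPI OE, with MES VNO in between. Mmp13 rose by 3.78 ± 0.12 (SE) in EPI VNO (adjusted p = 3.79e-05), by 4.15 ± 0.11 in MES OE (2.99e-05) and by 1.61 ± 0.16 in MES VNO (0.00113). In EPI OE the difference of 2.29 did not pass (adjusted p = 0.0561), and without replicate 2 it was 3.22 (adjusted p = 0.00176). With the estimated mesenchyme taken away, it was 1.06 in EPI OE (adjusted p = 0.64). The other collagenases, Mmp1a, Mmp1b and Mmp8, were not called in any comparison, and their group means reached at most 2.72, 2.26 and 3.73. The 6 measured osteoblast markers, the products of bone-forming cells, summed to 5189 to 5524 linear units in EPI VNO E14.5, 1878 to 3620 in EPI OE E14.5, 4261 to 4347 in MES OE E14.5 and 806 to 914 in MES VNO E14.5, against 293 to 492 in all groups of E11.5 and E12.5. Their part in the Mmp13 result was not tested.

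**Figure D3:**
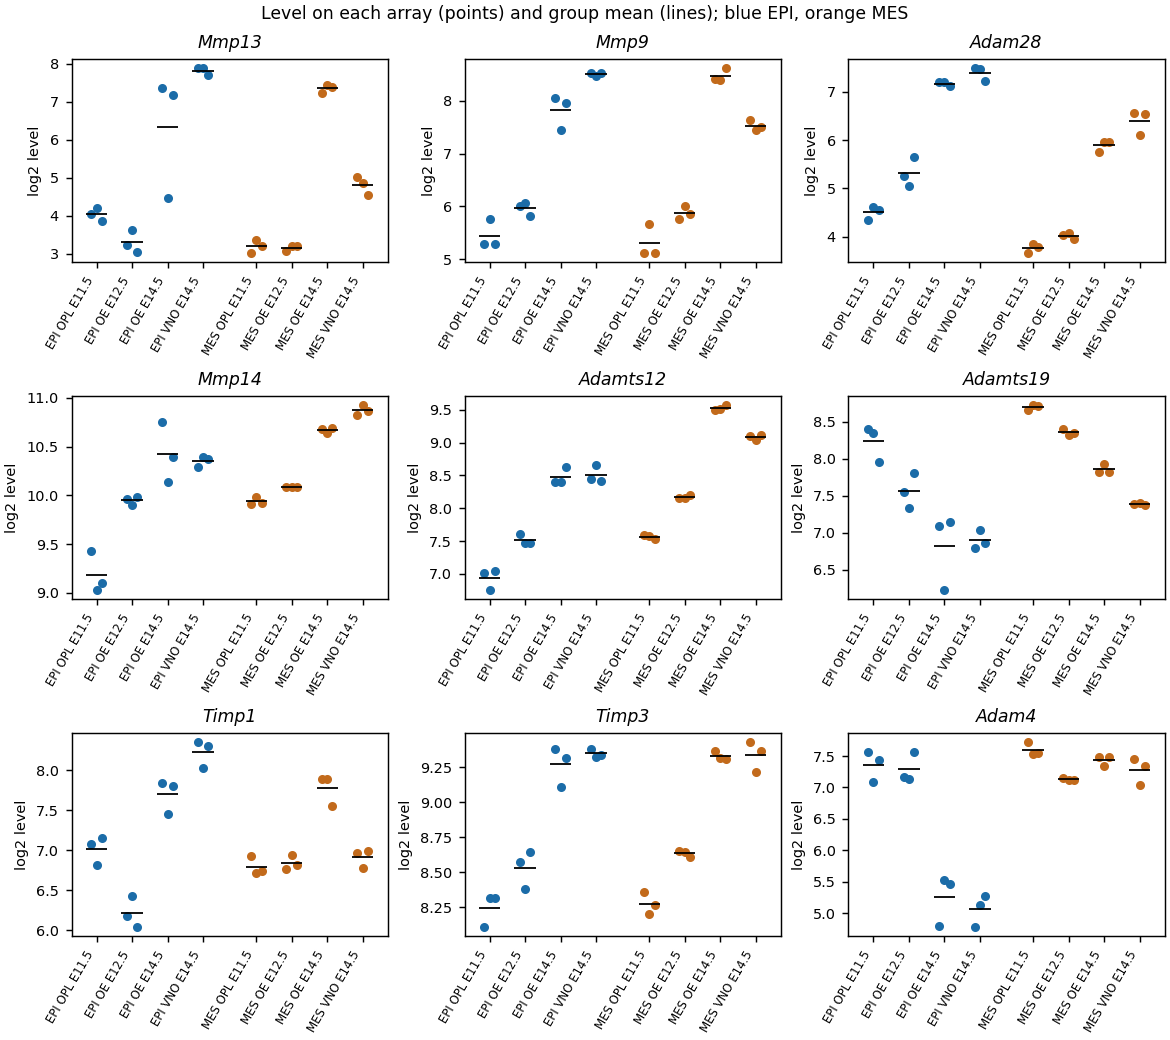
Log2 level of 9 members on each of the 24 arrays (points; lines are group means of 3 arrays; blue EPI, orange MES). Mmp13 is low in all arrays up to E12.5 (at most 4.20) and above 7 at E14.5 in EPI VNO, MES OE and 2 of 3 EPI OE arrays, and Adam4 is at most 5.53 in the EPI arrays of E14.5 and at least 7.04 in all others.

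Both gelatinases rose in EPI. Mmp9, which is known from osteoclasts, neutrophils and other invading cells, had levels of 5.28, 5.77 and 5.29 at EPI OPL E11.5, 6.01, 6.07 and 5.81 at EPI OE E12.5, 8.05, 7.45 and 7.95 at EPI OE E14.5, and 8.53, 8.46 and 8.53 at EPI VNO E14.5. In MES the levels of Mmp9 were 5.12, 5.67 and 5.12 at OPL E11.5, 5.75, 6.01 and 5.85 at OE E12.5, 8.41, 8.40 and 8.61 at OE E14.5, and 7.64, 7.45 and 7.50 at VNO E14.5. The arrays of E14.5 did not overlap those of the earlier ages in either fraction. Mmp9 rose against E11.5 by 2.37 ± 0.22 in EPI OE, 3.06 ± 0.15 in EPI VNO, 3.17 ± 0.17 in MES OE and 2.23 ± 0.17 in MES VNO (SE; adjusted p from 0.000113 to 0.00172). Of 8 osteoclast markers 3 were higher in EPI OE, 2 in EPI VNO and 2 in MES OE, while 1 was lower in MES VNO, and none of 6 neutrophil markers was called in these comparisons. Mmp2, the gelatinase of connective tissue, rose in EPI OE E14.5 (11.16, 10.63 and 11.19, against 9.90, 10.26 and 9.70 in EPI OPL E11.5; 1.04, adjusted p = 0.0151) and in EPI VNO E14.5 (1.08, adjusted p = 0.00235). The first call of Mmp2 was lost without EPI OPL E11.5 replicate 1 (1.01, adjusted p = 0.0557) and without replicate 3 (0.91, adjusted p = 0.0533). In MES the differences of Mmp2 were smaller, 0.76 and 0.50, and stayed under the minimum.

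Of the membrane-type Mmps, Mmp14, the activator of pro-Mmp2, rose in EPI OE E14.5 (10.75, 10.14 and 10.39, against 9.42, 9.03 and 9.10 in EPI OPL E11.5; 1.24, adjusted p = 0.00665). It also rose in EPI VNO E14.5 (1.17, adjusted p = 0.000977) and in MES VNO E14.5 (0.93, adjusted p = 0.000275), where the values as deposited gave 0.58 and no call. Mmp14 differed by 0.73 in MES OE. Mmp24, a neural membrane-type Mmp, had 6.75, 8.25 and 6.0 in EPI OE E14.5, against 5.50, 5.75 and 5.42 in EPI OPL E11.5, and its difference of 1.44 did not pass (adjusted p = 0.0807). The highest of these arrays is the replicate 2 with high neuronal markers, and without it the Mmp24 difference was 0.82 (adjusted p = 0.064). Mmp28 (epilysin), an Mmp of epithelia, rose in EPI OE (1.01, adjusted p = 0.00289) and EPI VNO (0.97, adjusted p = 0.000798), with levels of 7.13 to 7.26 in the 6 EPI arrays of E14.5 against 6.05 to 6.31 in EPI OPL E11.5 (0.89 in EPI VNO without EPI OPL E11.5 replicate 1, under the minimum). Its levels were not particular to EPI: over the 8 groups the highest mean was in MES OE E14.5 (7.24) and the lowest in EPI OPL E11.5 (6.20). Mmp12, the elastase of macrophages, was dim and rose in EPI VNO (4.41, 4.26 and 4.44, against 2.99, 3.45 and 3.40; 1.09, adjusted p = 0.00201), a change of 0.85 that missed the minimum on median-centred values. Its differences were 0.35 in EPI OE, -0.08 in MES OE and 0.19 in MES VNO, and it was not called in EPI VNO against EPI OE (0.74) or between the fractions' changes (0.90 at the VNO, under the minimum). Mmp3 and Mmp10, stromelysins, and Mmp7, matrilysin, were not called in any comparison.

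Among the Adamts genes, Adamts12, which cuts cartilage oligomeric matrix protein, rose in every one of the 4 comparisons of E14.5 with E11.5. Its levels were 8.40, 8.40 and 8.62 in EPI OE E14.5 and 8.45, 8.65 and 8.42 in EPI VNO E14.5, against 7.01, 6.75 and 7.05 in EPI OPL E11.5. In MES the levels of Adamts12 were 9.49, 9.51 and 9.57 at OE E14.5 and 9.09, 9.04 and 9.12 at VNO E14.5, against 7.59, 7.58 and 7.53 at OPL E11.5. The differences of Adamts12 lay between 1.52 and 1.95 and were larger than the spread between replicates in each pair. In the aggrecanase group 3 of 5 members rose in EPI VNO: Adamts5, the main aggrecanase of mouse cartilage (1.13, adjusted p = 0.00403), Adamts8 (1.13, adjusted p = 0.000948) and Adamts4 (0.94, adjusted p = 0.0045, and 0.77 without EPI OPL E11.5 replicate 3). Adamts5 was the member of that group that rose in MES, by 1.36 at OE (8.29, 8.39 and 8.49, against 7.04, 7.06 and 6.99) and 1.08 at VNO, and its difference in EPI OE was 0.86. Adamtsl1, a secreted protein related to the Adamts family but without a protease domain, rose in EPI OE (1.08, adjusted p = 0.0219), EPI VNO (1.34, adjusted p = 0.00155) and MES OE (1.50, adjusted p = 0.000115). The EPI OE call of Adamtsl1 was lost when EPI OE E14.5 replicate 1 or 3, or EPI OPL E11.5 replicate 1 or 3, was left out (adjusted p from 0.0539 to 0.0732). Adamts19 fell: it had 7.10, 6.22 and 7.14 in EPI OE E14.5 and 6.79, 7.04 and 6.86 in EPI VNO E14.5, against 8.40, 8.34 and 7.96 in EPI OPL E11.5, differences of -1.42 (-1.12 without EPI OE E14.5 replicate 2) and -1.34. In MES VNO E14.5 Adamts19 fell by 1.31 (7.39, 7.41 and 7.38, against 8.66, 8.72 and 8.72), and in MES OE its difference was -0.84.

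Of the 8 Adams grouped by role as active proteases, Adam28 and Adam12 rose in each of the 4 comparisons. That role leaves out the Adams of testis or epididymis, whose active sites were not examined. Adam28, known from lymphocytes and epididymis, had 7.20, 7.20 and 7.12 in EPI OE E14.5 and 7.49, 7.47 and 7.22 in EPI VNO E14.5, against 4.35, 4.62 and 4.55 in EPI OPL E11.5, differences of 2.66 and 2.89. In MES Adam28 had 5.76, 5.95 and 5.96 at OE E14.5 and 6.55, 6.11 and 6.53 at VNO E14.5, against 3.66, 3.85 and 3.80 at OPL E11.5, differences of 2.12 and 2.63. No array of E14.5 overlapped the earlier ones within its fraction. The epithelial markers summed to 4626 to 4701 linear units in MES OE E14.5 and 6021 to 6155 in MES VNO E14.5, against 1737 to 1810 in MES OPL E11.5, and their part in the MES difference of Adam28 was not tested. Adam12, the meltrin of muscle and bone precursors, rose by 1.09, 1.15, 1.66 and 1.02 in EPI OE, EPI VNO, MES OE and MES VNO. Adam33 rose in MES OE (7.40, 7.34 and 7.30, against 6.26, 6.36 and 6.37; 1.02, adjusted p = 0.000193). Adam10, the sheddase of Notch, was bright and nearly flat, between 10.12 and 10.63 on all 24 arrays, and its largest difference between E14.5 and E11.5 was 0.25 in EPI VNO. Adam22 and Adam23, the Lgi receptors of neurons, differed from E11.5 by at most 0.21 in EPI and 0.68 in MES, in which Adam23 was lower by that amount at VNO E14.5. Adam4, listed with the Adams of testis, fell in EPI: it had 4.79, 5.53 and 5.46 in OE E14.5 and 4.78, 5.13 and 5.27 in VNO E14.5, against 7.57, 7.08 and 7.43 in OPL E11.5, differences of -2.10 and -2.30 (adjusted p = 0.00285 and 0.00043). In MES Adam4 stayed between 7.04 and 7.72 on all 12 arrays.

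Of the 4 Timps, 2 were called between E11.5 and E14.5, with differences of up to 1.21. Timp3, the matrix-bound inhibitor, rose in all 4 comparisons, by 1.02 in EPI OE (9.38, 9.11 and 9.32, against 8.11, 8.32 and 8.31), 1.10 in EPI VNO, 1.05 in MES OE and 1.06 in MES VNO, with the MES differences at 0.83 and 0.79 and under the minimum on deposited values. Timp1, the inhibitor induced by growth factors and cytokines, rose in EPI VNO (8.35, 8.02 and 8.31, against 7.08, 6.82 and 7.16; 1.21, adjusted p = 0.00123) and in MES OE (7.89, 7.89 and 7.55, against 6.92, 6.72 and 6.74; 0.98, adjusted p = 0.00241, and 0.89 on deposited values). In MES VNO the difference of Timp1 was 0.12. Timp2, the partner of Mmp14, was bright and differed by 0.65 to 0.87, under the minimum in each comparison. Timp4 was dim, and its largest difference was 0.77, in EPI OE.

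Between E11.5 and E12.5 no member was called in either fraction, against 3.21% of all genes in EPI OE E12.5 (1.37% higher, 1.84% lower) and 1.49% in MES OE E12.5 (1.3% higher, 0.196% lower) by limma. At an unadjusted p under 0.05 by limma there were 25 of 65 members in EPI, against 5429 of 14804 genes. In MES there were 26 members, against 4483 genes. Rank Products called no member. On the values as deposited the EPI count was 20, all higher, where the median of all clusters also shifted by 0.54, and on median-centred values it was 2. The largest differences in EPI were 0.87 for Mmp21 and 0.82 for Adam28, followed by -0.80 for Timp1 (6.18, 6.43 and 6.04 in EPI OE E12.5, against 7.08, 6.82 and 7.16 in EPI OPL E11.5), 0.76 for Mmp14, 0.76 for Adamts5 and -0.73 for Mmp13. Mmp9 differed by 0.51 in EPI and 0.57 in MES, and Mmp2 by 0.42 and 0.23. The largest difference in MES was 0.69, for Adamtsl1.

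At E14.5 the VNO was set against the OE in each fraction. In EPI no member was called, and none of all genes (0%) was either, by limma. An unadjusted p under 0.05 was found in 13 of 65 members, against 2266 of 14804 genes. Rank Products called none of the members either. With the spread estimated over the whole time course 2 members were called, Mmp13 higher and Mmp24 lower in the VNO, and on deposited values 1. Mmp13 was at 7.88, 7.88 and 7.69 in EPI VNO, against 7.35, 4.47 and 7.17 in EPI OE, a difference of 1.49 (adjusted p = 0.386). Without EPI OE E14.5 replicate 2 the difference was 0.56 for Mmp13 (adjusted p = 0.202) and -0.70 for Mmp24 (adjusted p = 0.335), against -1.32 for Mmp24 with it. In MES 3 members were called, all lower in the VNO, 4.62% of members against 1.51% of all genes (0.669% higher, 0.844% lower). They were Mmp13 (5.02, 4.87 and 4.54 in MES VNO, against 7.23, 7.44 and 7.38 in MES OE; -2.54, adjusted p = 0.00179), Adamtsl1 (7.77, 7.45 and 7.78, against 8.80, 8.76 and 8.82; -1.13, adjusted p = 0.00647) and Mmp9 (-0.95, adjusted p = 0.00763). The arrays did not overlap for any of the 3, which also held for 30 of the 65 members and for 41.7% of all genes. Mmp9 missed the minimum on deposited values and without MES OE E14.5 replicate 3 (-0.88 in both). Of 6 osteoblast markers 5 were lower in MES VNO, as were 2 of 8 osteoclast markers. Timp1 differed by -0.86, Adam33 by -0.73 and Adam12 by -0.64 without passing the minimum, whereas Timp3 differed by 0.01 and Mmp14 by 0.20.

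Between the fractions, few members were called before E14.5. At OPL E11.5 there were 2, or 3.08% of members against 5.12% of all genes (3.93% higher, 1.19% lower): Adamts20, whose loss gives the belted coat in mice, was lower in EPI (7.71, 7.73 and 6.96 in EPI, against 8.79, 8.87 and 8.83 in MES; -1.36, adjusted p = 0.0104), and Adam6a was higher (0.92, adjusted p = 0.0369). The Adam6a call was lost without any one of EPI replicates 1 and 3 and MES replicates 1 to 3 (adjusted p from 0.0528 to 0.113). On deposited values 27 members were called there, all lower in EPI, with a median over all clusters of -0.66. At OE E12.5 there were 3, or 4.62% against 5.55% of all genes (3.46% higher, 2.09% lower): Adam28 (5.26, 5.06 and 5.65 in EPI, against 4.04, 4.07 and 3.96 in MES; 1.30, adjusted p = 0.00493) and Adam6b (1.26) were higher in EPI and Adamts4 lower (-0.96, and -0.89 without EPI OE E12.5 replicate 1). Adam6a and Adam6b are close copies of each other, and probes may be shared between them. The differences of Mmp2 were -0.55 at OPL E11.5 and -0.36 at OE E12.5, and those of Mmp14 were -0.75 and -0.14, none of them past the minimum.

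At OE E14.5 10 members were called (4 higher in EPI, 6 lower), 15.4% against 7.89% of all genes (6.5% higher, 1.39% lower), and on deposited values 15, all lower. At VNO E14.5 8 were called (7 higher, 1 lower), 12.3% against 8.74% of all genes (6.72% higher, 2.02% lower), and on deposited values 7 (2 higher, 5 lower). So the split between higher and lower members rests on the scaling. Adam4 was lower in EPI under both scalings, with differences of -2.18 at OE (4.79, 5.53 and 5.46 in EPI, against 7.49, 7.34 and 7.49 in MES) and -2.22 at VNO (4.78, 5.13 and 5.27 in EPI, against 7.46, 7.04 and 7.34 in MES). Another 5 Adamts or Adamts-like genes were lower in EPI OE than in MES OE, namely Adamts20 (-1.08), Adamtsl1 (-1.06), Adamts12 (-1.05), Adamts19 (-1.04) and Adamts10 (-0.92). Without EPI OE E14.5 replicate 2 the differences of Adamtsl1, Adamts19 and Adamts10 were -0.82, -0.74 and -0.81, under the minimum. Adamtsl1 and Adamts19 also missed the threshold when any one MES OE array was left out (adjusted p from 0.0521 to 0.0914), and Adamts10 missed the minimum without MES OE E14.5 replicate 1 (-0.85). Higher in EPI OE were Adam28 (1.28), Adam30 (1.28), Adam6a (1.20) and Timp4 (1.01), none of which was called on deposited values. In EPI VNO, Mmp13 stood 3.01 above MES VNO (7.88, 7.88 and 7.69, against 5.02, 4.87 and 4.54; adjusted p = 0.000323) and Timp1 1.31 above it (8.35, 8.02 and 8.31, against 6.97, 6.78 and 6.99; adjusted p = 0.000905), and both were called on deposited values too. Mmp9 (0.98), Adam28 (0.99), Adam30 (1.07), Adam6a (1.31) and Adam6b (1.40) were not called on deposited values, and among the scalings run Adam30 was called on the quantile scales alone. Adam28 was at 0.85 without MES VNO E14.5 replicate 2. In EPI VNO 5 of 6 osteoblast and 6 of 7 skeletal muscle markers were higher than in MES VNO and 4 of 8 neuronal markers lower, and their part in these differences was not tested.

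**Figure D4:**
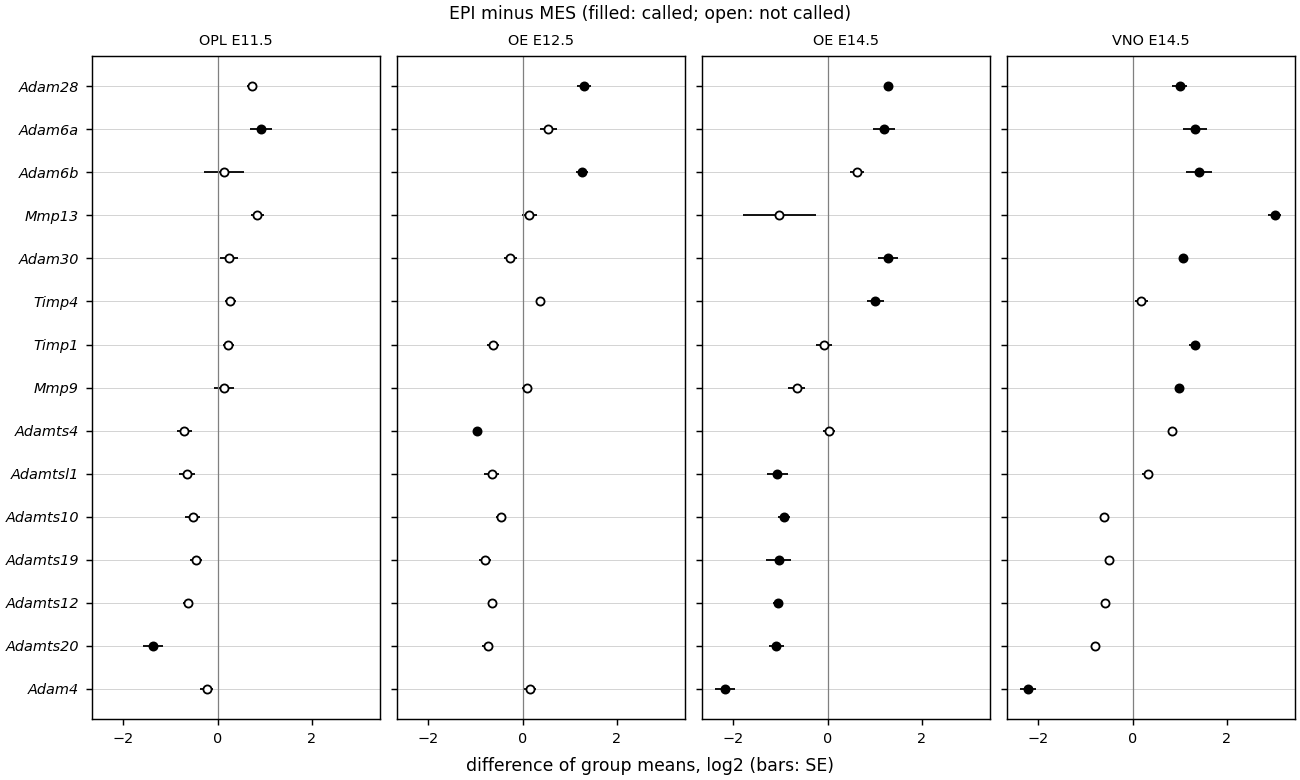
EPI minus MES in log2 units (points, bars are SE, 3 arrays in each group) at the 4 sites and ages, for the members called in at least one of them, with filled points for calls. Mmp13 stands apart at VNO E14.5 (3.01), and Adam4 at both sites of E14.5 (-2.18 at the OE and -2.22 at the VNO).

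Whether a change between ages differed between the fractions was tested as an interaction on 12 arrays. For OE E12.5 against OPL E11.5 no member was called, against 4.05% of all genes by limma (0.919% higher, 3.13% lower). An unadjusted p under 0.05 was found in 17 of 65 members, against 5722 of 14804 genes. On deposited values there were 14, all higher, for OE E12.5, 9 (8 higher, 1 lower) for OE E14.5 and 17 (16 higher, 1 lower) for VNO E14.5. The median over all clusters was also shifted on that scale, by 0.51, 0.30 and 0.42 in that order. For OE E14.5 against OPL E11.5 there were 2, or 3.08% of members against 7.95% of all genes (5.5% higher, 2.45% lower): Adam4, with an EPI change minus MES change of -1.94 (adjusted p = 0.00106), and Adam30 (1.05, adjusted p = 0.0255), which lost its call in 5 of the 12 fits with an array left out (differences from 0.84 to 1.04). Without EPI OE E14.5 replicate 2 Mmp13 was called (-0.93, adjusted p = 0.00682) and Adam30 was not. With that array the Mmp13 difference was -1.86. For VNO E14.5 against OPL E11.5 there were 6, or 9.23% against 12.1% of all genes (7.74% higher, 4.38% lower). Mmp13 rose by 2.17 more in EPI than in MES (adjusted p = 4.68e-05), and the EPI change exceeded the MES change by 1.53 for Adamts4 (adjusted p = 0.000169), 1.11 for Mmp28, 1.09 for Timp1 and 0.96 for Adamtsl1, whereas Adam4 had a difference of -1.99 (adjusted p = 0.000168). Adamts4 had 7.62, 7.67 and 7.58 in EPI VNO E14.5, against 6.82, 6.89 and 6.35 in EPI OPL E11.5, and in MES it had 6.79, 6.81 and 6.79 at VNO E14.5, against 7.30, 7.52 and 7.35 at OPL E11.5. Its arrays therefore did not overlap in either fraction, and the difference had opposite signs. Adamtsl1 lost its call without EPI OPL E11.5 replicate 3 (0.82) and without MES VNO E14.5 replicate 2 (0.86). In the same VNO test 4 of 6 osteoblast markers had a higher change in EPI, and 7 of 9 epithelial and 6 of 8 neuronal markers a lower one.

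In Dlx5-null epithelium no member was called by limma, and 1 gene in all was (0.00673% of 14860). At an unadjusted p under 0.05 by limma there were 12 of 65 members, against 2316 of 14860 genes. Rank Products called 1 member, Adamtsl1. The study, by Rank Products on arrays normalized for this pair, has Adamts5 among its genes that differ without Dlx5. Adamts5 was not called here. The Dlx5 cluster itself was at 10.33, 10.30 and 10.11 in KO, against 10.95, 10.98 and 10.97 in WT, lower on every KO array. The largest difference was that of Adamtsl1, with 9.54, 8.88 and 9.47 in KO against 7.98, 8.29 and 8.21 in WT, a difference of 1.14 ± 0.19 (SE; adjusted p = 0.154 by limma). Adamts5 followed with 10.75, 9.70 and 9.67 in KO against 8.97, 8.97 and 9.25 in WT (0.98, adjusted p = 0.258), then Adamts1 with 10.99, 10.58 and 10.26 in KO against 10.03, 9.94 and 10.03 in WT (0.61, adjusted p = 0.255). In these 3 genes the KO arrays lay above all WT arrays. Without KO replicate 1 the difference was 0.62 for Adamts5, 1.01 for Adamtsl1 and 0.42 for Adamts1. The largest negative differences were those of Adam28 (6.92, 8.32 and 7.95, against 8.15, 8.20 and 7.99; -0.38), Timp3 (10.17, 10.46 and 10.17, against 10.44, 10.67 and 10.78; -0.36) and Adam19 (-0.22), and the KO and WT arrays overlapped for Adam28 and Timp3. The difference of Adam28 lay in KO replicate 1, without which it was 0.02. Mmp13, Mmp9, Mmp2 and Mmp14 differed by 0.07, -0.18, 0.22 and 0.27, Adam10, Adam22 and Adam23 by 0.16, 0.00 and -0.15, and Timp1, Timp2 and Timp4 by 0.27, 0.56 and 0.04, and without KO replicate 1 those of Mmp13 and Timp4 were both -0.02 and that of Timp1 was 0.07. Over all 65 members the groups did not overlap in 17 (15 of them higher in KO), while 25.8% of all genes did not overlap. The 9 mesenchymal markers summed to between 18390 and 26669 linear units in KO, against 14964 to 16324 in WT, and the 9 epithelial ones to between 11812 and 19450 in KO, against 20638 to 20722 in WT. Their part in the differences of Adamtsl1 and Adamts5 was not tested.

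**Figure D5:**
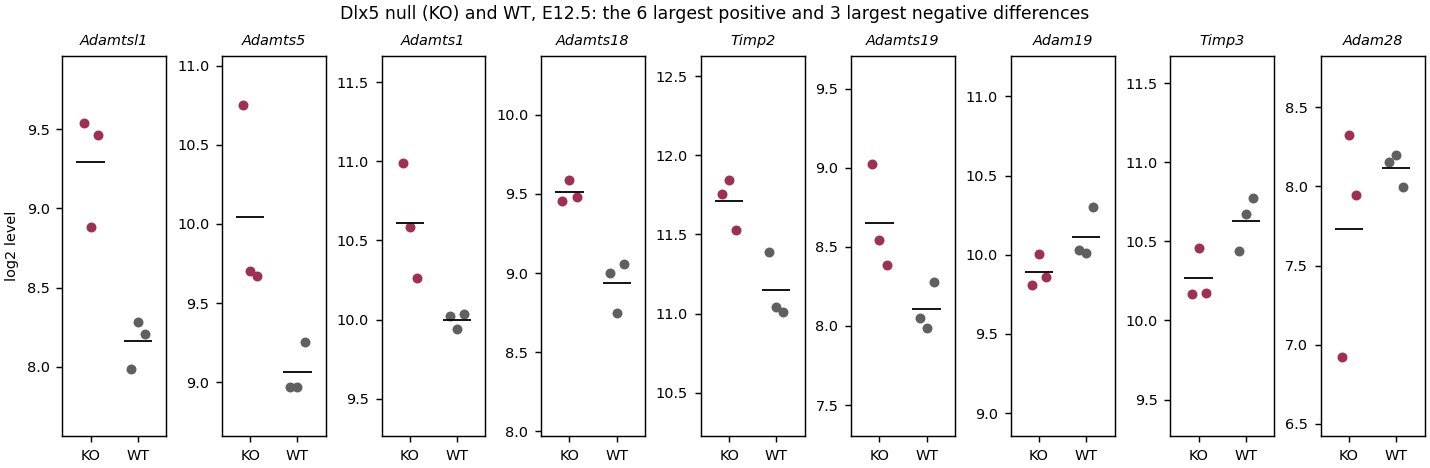
Log2 level on each KO (left) and WT (right) array at E12.5 for the 6 members with the largest positive and the 3 with the largest negative difference; lines are means of 3 arrays and each panel spans the same number of log2 units. Adamtsl1 (1.14) and Adamts5 (0.98) are higher on every KO array, and KO replicate 1 is the highest Adamts5 array (10.75).

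Of 43 measured genes that act with these proteases (plasminogen activators, cathepsins, inhibitors, Adam partners and proteoglycan substrates), 10 were higher and none lower in EPI OE E14.5 than in EPI OPL E11.5, and 11 were higher in EPI VNO, 8 in MES OE and 6 in MES VNO, with none lower. That is against 9.44%, 10.3%, 6.13% and 7.15% of all genes higher in that order, and the list holds Acan and Ctsk, which are also in the cartilage and osteoclast marker lists. Acan, the aggrecan core protein cut by the aggrecanases, rose most in each, by 3.80, 3.23, 4.15 and 4.12 in that order. Ctsk, the collagen-cleaving cathepsin of osteoclasts, rose by 1.88 in EPI OE, 2.37 in EPI VNO and 1.20 in MES OE. Dpp4, a membrane serine peptidase, rose by 2.25 in EPI OE and 2.03 in EPI VNO, and Lgi2, of the family of Adam22 and Adam23 ligands, by 1.99 in MES OE and 2.58 in MES VNO. Between the fractions, the epithelial membrane serine protease St14 and its inhibitors Spint1 and Spint2 were higher in EPI at OPL E11.5 (1.27, 1.08 and 1.94) and at OE E12.5 (1.51, 1.29 and 1.95). In KO against WT none of the 43 was called.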

How the data were processed

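RNA of 30 samples was measured on Affymetrix Mouse Exon 1.0 ST arrays. The deposited values are log2 expression levels, which the authors obtained by RMA (background correction, quantile normalization and summary of probes) for 23339 transcript clusters with mm9 annotation. The methods state RMA for each pairwise comparison apart, whereas the deposited table holds 1 value per cluster and array, and the 24 time-course arrays and the 6 Dlx5 arrays appear from their empty clusters and medians to have been normalized apart. Levels of these sets were not set against each other. No column of values was left unmapped to a sample (0 columns). Gene names came from the platform table (14996 clusters with a single symbol, 1019 with several, which were not used, and 7324 with none).

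Values were quantile-normalized again within each set of arrays and tested with limma 3.58.1 (lmFit and eBayes, R 4.3.3) on the 6 arrays of a pair, or 12 for an interaction. Benjamini-Hochberg adjustment was over all 23238 clusters with values on the time-course arrays and all 23332 on the Dlx5 arrays. Shares of all genes are over the genes with a single symbol, 14804 on the time-course arrays and 14860 on the Dlx5 arrays. Calls needed an adjusted p up to 0.05 and a log2 difference of at least 0.9 either way, the study's thresholds. The procedure was tested on simulated data. Alternatives were the deposited values, other scalings, brighter clusters only, no minimum fold, a replicate block, a single fit, Rank Products (100 permutations), the study's mesenchyme subtraction (0.15 of the MES level) and leaving out each array. Groups of 3 arrays limit the precision.

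The text names, for each comparison, up to 5 called members with the largest rise and 5 with the largest fall. A fixed panel was planned as values (Mmp2, Mmp9, Mmp13, Mmp14, Adam10, Adam22, Adam23, Adamts5 and the Timps), and not all of it is given in every comparison. Adam17 was also planned, but it is not among the members. Other members (Mmp24, Mmp28, Adam33, Mmp12 and the chromosome 9 row among them) were added after their values were seen. Members, gene lists and tests were chosen with earlier results of these data known. Roles were grouped from background knowledge. Promoter sequences are RefSeq's (GRCm38.p6).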

Additional observations from a re-analysis of the deposited data

Results flagged for a closer look

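In 8 cases the change of a member from E11.5 to E14.5 differed between EPI and MES by limma's interaction test, each value being the EPI change minus the MES change in log2 units. They are 3.08% of members against 7.95% of all genes for the OE and 9.23% against 12.1% for the VNO. For the OE these were Adam4 (-1.94, adjusted p = 0.00106), which fell in EPI and differed by -0.16 in MES, and Adam30 (1.05, adjusted p = 0.0255). For the VNO they were Mmp13 (2.17, adjusted p = 4.68e-05), which rose in both fractions, Adamts4 (1.53, adjusted p = 0.000169), with changes of opposite sign, Mmp28 (1.11, adjusted p = 0.000419), Timp1 (1.09, adjusted p = 0.000823), Adamtsl1 (0.96, adjusted p = 0.00498) and Adam4 (-1.99, adjusted p = 0.000168). The OE and VNO tests share the arrays of E11.5.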

How the results depend on the processing

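Of 81 calls of a member in a comparison, 30 were made under every setting run and none changed sign. On deposited values the counts of called members were 20 for EPI OE E12.5 and 17 for EPI OE E14.5 against EPI OPL E11.5, 1 for EPI VNO against EPI OE, 27 and 5 for EPI against MES at OPL E11.5 and OE E12.5, and 14, 9 and 17 for the fraction differences at OE E12.5, OE E14.5 and VNO E14.5. On median-centred values they were 2 for EPI OE E12.5, 1 and 6 for EPI against MES at OPL E11.5 and OE E14.5, and 1 and 4 for the fraction differences at OE E12.5 and OE E14.5. Normalizing only the compared arrays gave 1 for EPI against MES at OPL E11.5. Among clusters brighter than the median there were 1, 1, 5 and 2 for EPI against MES at OPL E11.5, OE E12.5, OE E14.5 and VNO E14.5, and 0 for the OE E14.5 fraction difference (fewer genes tested). With no minimum fold the counts were 13, 28 and 35 for EPI OE E12.5, OE E14.5 and VNO E14.5 against E11.5, 16, 30 and 23 for MES, 16 for MES VNO against MES OE, 22, 19, 28 and 31 for EPI against MES, and 10, 15 and 19 for the fraction differences. The single fit gave 2 for EPI VNO against EPI OE, and mesenchyme taken away gave 3 for EPI OE E12.5. Rank Products gave 3 and 5 for EPI OE E14.5 and EPI VNO E14.5, 4 for MES VNO E14.5, 1 for MES VNO against MES OE, 1, 1 and 3 for EPI against MES at OPL E11.5, OE E14.5 and VNO E14.5, and 1 for KO against WT. The causes were not tested.

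The replicate block gave 0 for MES VNO against MES OE (adjusted p = 0.0626 for Mmp13, 0.0854 for Adamtsl1 and 0.0958 for Mmp9) and took 7 calls in all. Arrays of the same number correlated at -0.184 to 0.281, and in no comparison were all such correlations above 0.1, so that the numbers were not taken as pairs.

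Leaving out 1 array gave 0 to 2, 10 to 14 and 16 to 18 members for EPI at OE E12.5, OE E14.5 and VNO E14.5, 0, 10 to 11 and 9 for MES, 0 for EPI VNO against EPI OE, 3 for MES VNO against MES OE, 1 to 3, 2 to 4, 7 to 11 and 8 to 10 for EPI against MES, 0 for KO against WT, and 0 to 3, 1 to 5 and 6 to 10 for the fraction differences. The count for EPI OE E12.5 was 2 without its replicate 2 and 1 without its replicate 3 or EPI OPL replicate 2. EPI against MES at OPL E11.5 gave 1 without EPI replicate 1 or MES replicate 1 or 3. The VNO fraction difference gave 10 without MES OPL replicate 1 or 3. That of OE E12.5 gave 3 without MES OPL replicate 1, and 1 without EPI OPL replicate 2 or EPI OE replicate 2 or 3. That of OE E14.5 gave 5 without EPI OE replicate 3, 4 without EPI OPL replicate 2, EPI OE replicate 1 or MES OPL replicate 1 or 3, and 1 without EPI OPL replicate 3 or MES OE replicate 2.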

Other observations

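In the list of genes that act with these proteases, the change from OPL E11.5 to VNO E14.5 differed between EPI and MES in 9 of 43 (6 with a higher and 3 with a lower change in EPI), against 12.1% of all genes (7.74% higher, 4.38% lower). Ctsk (1.50), the macrophage and dendritic cell cathepsin Ctss (1.49) and Plau (1.18), the urokinase plasminogen activator, had the largest positive differences. St14 (-1.10), Spint2 (-1.06) and Tspan5 (-1.05), a tetraspanin that escorts Adam10, had the negative ones. Of the 8 osteoclast markers, Atp6v0d2 (1.79), Acp5 (1.63) and Ctsk again differed in the same direction as Mmp13. The other osteoclast markers are not described here, and the part of osteoclasts in the Mmp13 difference was not tested.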
